A study of Homo sapiens with 24 samples.

Results

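A549 is an established human line of non-small cell lung carcinoma. The comparison described here set 3 A549 libraries with the K3Q form of SIRT6, a triple mutant made to imitate acetylation, against 3 A549 libraries with the empty vector (Ctr). These 6 libraries were taken by their line and construct from the 24 libraries of the series, which also hold A549 with wild-type SIRT6 (WT) or the acetylation-deficient triple mutant (K3R), and H1299, another line of the same cancer, with all 4 constructs. All constructs were FLAG-tagged and stably introduced by lentivirus, so the Ctr cells also carry a vector, and every line keeps its own SIRT6 gene. The labels name no clone, and which lysines were changed is not stated in them. The question was which transcripts differ when the acetylation-mimetic protein is forced into these cells. Each construct has library 1-1 (biological replicate 1, batch 1), library 1-2 (biological replicate 1, batch 2) and library 2-2 (biological replicate 2, batch 2). Nothing in the labels says that 1-1 and 1-2 came from separate cultures, so the p-values measure the spread between these libraries, which may in part be technical.

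SIRT6 is a nuclear NAD-dependent deacylase that removes acetyl groups from lysines of histone H3 and thereby represses transcription, among others of glycolytic genes. It also takes part in DNA repair and telomere maintenance. Acetylation of a lysine removes its positive charge: glutamine (Q) keeps the side chain uncharged, like acetyl-lysine, and arginine (R) keeps the charge but cannot be acetylated. In carcinoma cells the balance between epithelial junction genes and mesenchymal matrix genes is a common readout of cell state.

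The 3 K3Q libraries were not 3 equally separate measurements. K3Q 1-2 and K3Q 2-2 were nearly identical: their counts differed by a chi-square per degree of freedom of 2.49 over genes, the lowest of all 66 pairs of A549 libraries, though above the value near 1 that sampling noise alone gives. The 11 other pairs of one construct gave 21.3 to 63.6. Some pairs of different constructs with one library number came close, with 2.64 for WT 2-2 and K3R 2-2 and 2.75 for WT 1-2 and K3R 1-2. K3Q 2-2 was also close to the 1-2 libraries of those constructs, with 4.19 for K3R 1-2 and 5.44 for WT 1-2. It did not resemble the other 2-2 libraries, with 50.8 against Ctr 2-2, 37.4 against WT 2-2 and 36.4 against K3R 2-2. In a principal component analysis, component 1 (37.7%) put Ctr 2-2, WT 2-2 and K3R 2-2 at 50.9 to 53.7. K3Q 2-2 lay at -13.0, beside K3Q 1-2 at -12.1 and apart from K3Q 1-1 at -36.2. From these counts, 1 culture sequenced under both numbers, a library with the wrong label and separate cultures that happened to be alike cannot be told apart. Both libraries were kept in the fit of 3 against 3. Beside each lead result stands its value with the counts of that pair added into 1 library. For the genes that passed in K3Q against Ctr, the value with biological replicate 1 alone is given too. That is libraries 1-1 and 1-2 of each construct, which leaves out every 2-2 library. This fit holds 1 biological replicate per construct, so its p-values do not measure the spread between biological replicates.

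**Figure D1:**
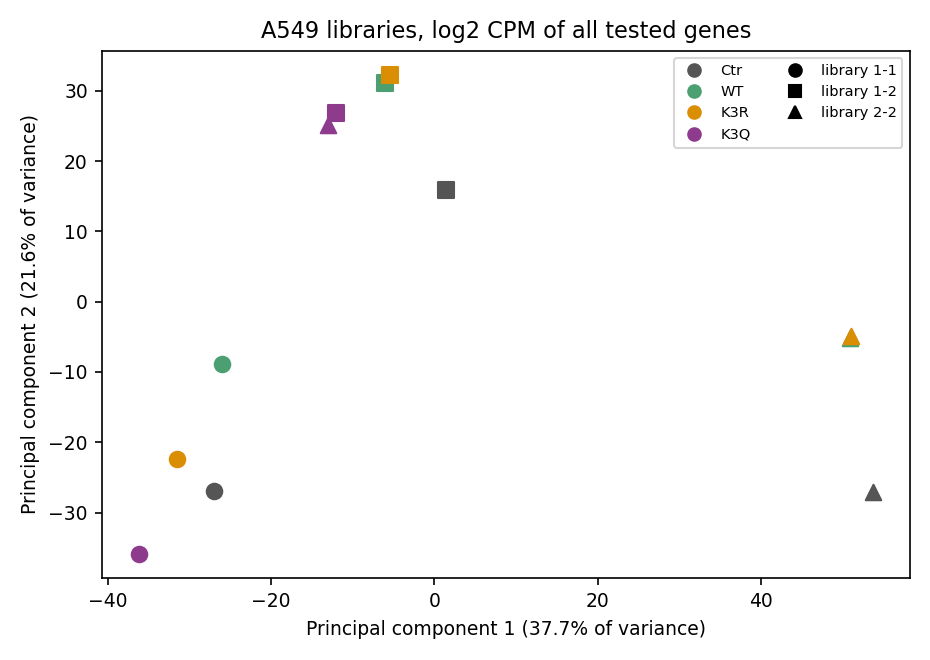
Scores of the 12 A549 libraries on the first 2 principal components of log2 CPM, by construct (colour) and library number (shape). The 2-2 libraries of Ctr, WT and K3R lie at the right between 50.9 and 53.7 on component 1, and K3Q 2-2 lies beside K3Q 1-2 at the left.

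Total counts in A549 ran from 16434492 to 19412274 per library, and mitochondrially encoded genes took 6.04% to 8.32% of them. Markers of other cell types were scarce. Levels are given in CPM, counts scaled to the same library total by TMM, and are not per gene length. The summed level of 10 fibroblast markers was 13.3 to 26 CPM in Ctr and 14.8 to 18.4 CPM in K3Q, with DCN and DPT at 0 in all 6 libraries and COL1A1 holding 60.5% of the sum. Of 10 endothelial markers none passed the filter on low counts, VWF, TIE1, EMCN and ERG were at 0, and the sum was 0.429 to 0.456 CPM in Ctr and 0.471 to 1.03 CPM in K3Q. Leukocyte markers summed to 9.19 to 11.8 CPM in Ctr and 8.23 to 10.0 CPM in K3Q, with PTPRC, CD3E and MS4A1 among those at 0. Of these 10 markers 3 passed the filter, CD14, ITGAM and CD79A, and CD14 held 53.8% of the sum. All 10 markers of A549 itself, such as KRT8, passed the filter and summed to 12618 to 28481 CPM in Ctr and 19104 to 25137 CPM in K3Q. The part of these levels in the results below was not tested. In bulk RNA, a change in the share of cells that express a gene and a change in RNA per cell cannot be told apart.

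Of 16120 genes tested, 4 passed an adjusted p of 0.05 (0.0248%) in K3Q against Ctr, 2 higher (0.0124%) and 2 lower (0.0124%), in the quasi-likelihood test of edgeR (Benjamini-Hochberg adjusted). They were SIRT6 and LSR, which rose, and FBN2 and SFMBT2, which fell. The introduced gene tells the empty vector from a SIRT6 construct, but it does not tell K3Q from WT or K3R, in which SIRT6 was also raised. SIRT6 (GRCh38 chromosome 19, 4174109 to 4182604, minus strand) stood at 24.2, 22.4 and 31.4 CPM in Ctr libraries 1-1, 1-2 and 2-2, and at 1472, 1696 and 1582 CPM in the K3Q libraries. Every K3Q library thus lay far above every Ctr library, with a log2 change of 5.93 ± 0.27 (SE, n = 3 against 3, edgeR adjusted p = 3.38e-06). With the K3Q pair summed it was 6.0 (edgeR adjusted p = 2.67e-05), and with biological replicate 1 alone it was 6.08. The count does not separate the transgene from the resident gene.

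LSR encodes the lipolysis-stimulated lipoprotein receptor, also known as angulin-1, which builds the tricellular tight junctions of epithelia. Its level (chromosome 19, 35248330 to 35267964, plus strand) was 18.2, 15.7 and 22.2 CPM in Ctr and 38.7, 47.4 and 39.3 CPM in K3Q. All 3 K3Q values lay above all 3 Ctr values, and LSR rose by a log2 change of 1.16 ± 0.15 (SE, edgeR adjusted p = 0.0295). With the pair summed the log2 change was 1.17 and no longer passed (edgeR adjusted p = 0.133). With biological replicate 1 alone, where no other biological replicate enters the p-value, the log2 change was 1.34 (edgeR adjusted p = 9.49e-05).

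FBN2 encodes fibrillin-2, a large glycoprotein of the extracellular microfibrils on which elastic fibres form and which hold latent TGF-beta. FBN2 (chromosome 5, 128257909 to 128659185, minus strand) was at 145, 146 and 151 CPM in Ctr and at 66.2, 79.4 and 82.0 CPM in K3Q. The 3 Ctr values were close together and the highest K3Q value was far below them. FBN2 fell by 0.96 on the log2 scale (SE 0.10, edgeR adjusted p = 0.00785). With the pair summed the log2 change was -0.99 (adjusted p = 0.0780), and with replicate 1 alone it was -0.99 (adjusted p = 3.49e-05).

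SFMBT2 is a Polycomb-related protein with MBT domains, which bind methylated lysines of histones. In Ctr it stood at 26.3, 54.7 and 43.0 CPM, and in K3Q at 13.3, 22.8 and 23.6 CPM (chromosome 10, 7158624 to 7411486, minus strand). Library 1-1 was the lowest of each construct, and no K3Q value reached the lowest Ctr value. The log2 change was -1.04 ± 0.13 (SE, edgeR adjusted p = 0.0295). The call did not hold with the pair summed (log2 -1.05, adjusted p = 0.277) and did with replicate 1 alone (log2 -1.12, adjusted p = 0.000354). Leaving out any 1 of the K3Q libraries, or Ctr 1-1, left SIRT6 as the only call. Without Ctr 1-2, SIRT6 and FBN2 passed (2 genes), and without Ctr 2-2 the count was 14, including all 4. Over all alternatives the adjusted p ran from 3.38e-12 to 0.680 for LSR, from 5.72e-14 to 0.680 for FBN2 and from 1.57e-08 to 0.815 for SFMBT2.

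**Figure D2:**
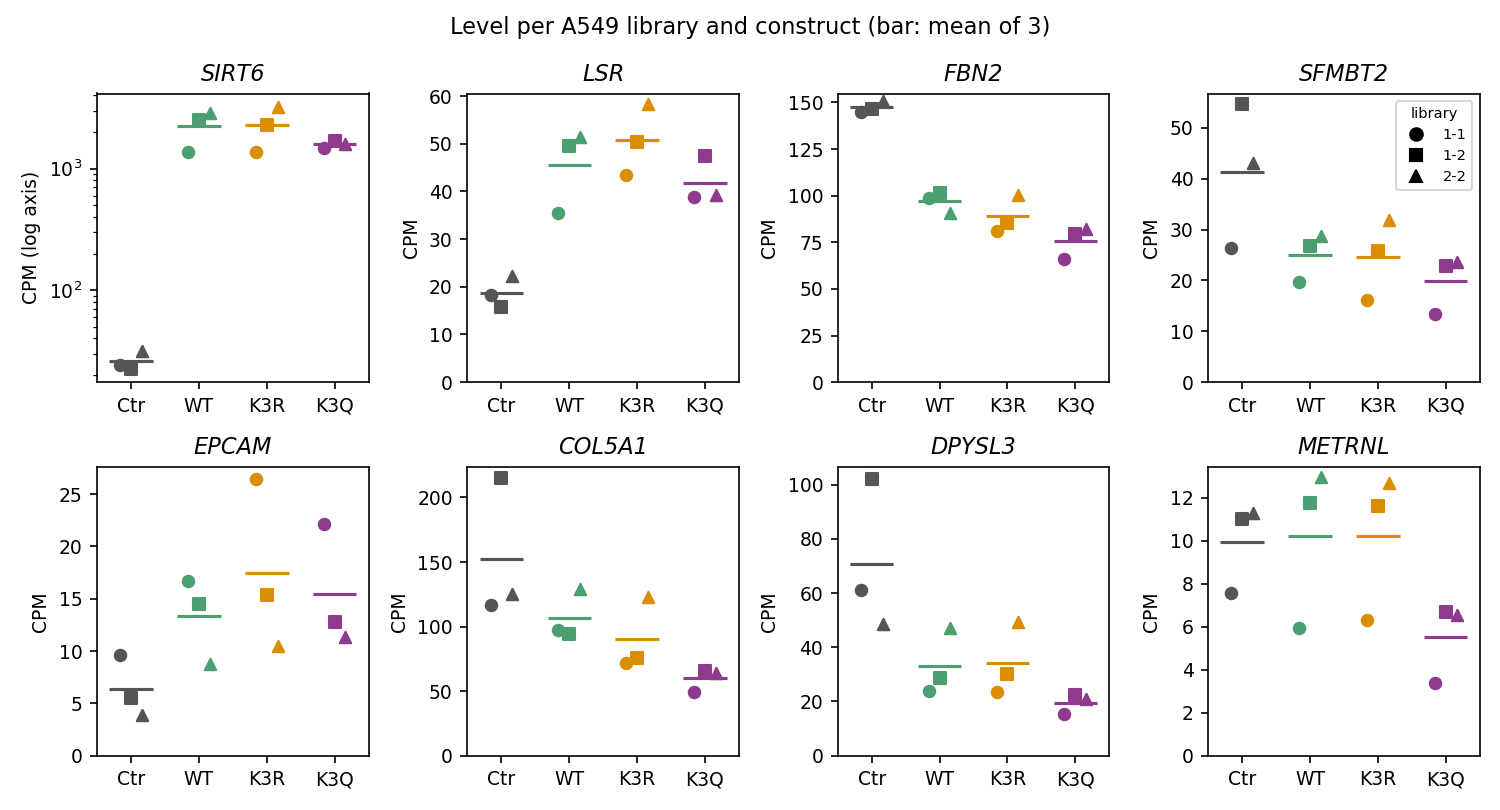
Level in CPM of 8 genes in each of the 12 A549 libraries, by construct, with shapes for library numbers and a bar for the mean of 3. SIRT6 has a log axis and the others start at 0; for LSR, FBN2, SFMBT2, EPCAM, COL5A1, DPYSL3 and METRNL the K3Q and Ctr libraries do not overlap.

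The 24 genes next in line, 12 higher and 12 lower by unadjusted p with mean log2 CPM of at least 1 and no overlap between K3Q and Ctr, did not pass over all libraries. Their adjusted p ran from 0.0602 to 0.200 in the edgeR fit. With biological replicate 1 alone, which holds 4 of the 6 libraries, all 24 passed. In that fit 116 of 16116 genes passed as higher (0.720%) and 176 as lower (1.09%). The 24 were ranked in a fit that holds these same libraries, so their passing is no independent support. With the K3Q pair summed none of the 24 passed. Each of these genes kept its direction under every alternative tried, which was close to fixed in advance. They had been chosen for no overlap between the groups in these same libraries. The values below are therefore descriptions of genes that stand first in the ranking, with adjusted p from the fit of all libraries.

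Of the 12 higher genes, EPCAM belongs to the list of epithelial junction and keratin genes, LAMB3 to the basement membrane list and NR0B1 to the NRF2 targets. EPCAM, an epithelial adhesion molecule, was at 9.61, 5.51 and 3.87 CPM in Ctr and at 22.1, 12.8 and 11.3 CPM in K3Q. Each K3Q library lay above the Ctr library of the same number and above all 3 Ctr values, with a log2 change of 1.30 ± 0.23 (edgeR adjusted p = 0.0996). LAMB3, a chain of laminin-332 in the epithelial basement membrane, was at 36.7, 24.2 and 35.0 CPM in Ctr and at 54.3, 63.2 and 65.7 CPM in K3Q (log2 0.91 ± 0.19, edgeR adjusted p = 0.158). AMOTL1, an angiomotin family protein at tight junctions that binds the Hippo effector YAP, is in none of the lists and was at 66.6, 58.8 and 62.5 CPM in Ctr and 86.0, 83.0 and 90.2 CPM in K3Q (log2 0.47 ± 0.08, edgeR adjusted p = 0.0996).

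The rest were in none of the lists but for NR0B1. CYP26B1, which breaks down retinoic acid, was at 32.3, 17.1 and 16.6 CPM in Ctr and 59.6, 35.0 and 36.3 CPM in K3Q (log2 1.01 ± 0.15, edgeR adjusted p = 0.0602). CES1, a carboxylesterase, had the largest log2 change of the 12, at 1.81 ± 0.34 (edgeR adjusted p = 0.104). Its Ctr values of 53.9, 12.4 and 13.5 CPM and K3Q values of 96.6, 70.6 and 67.1 CPM show library 1-1 high in both constructs. CLU, the secreted chaperone clusterin, rested on high counts, with 559 to 610 CPM in Ctr and 776 to 913 CPM in K3Q (log2 0.54 ± 0.10). The log2 changes of the other members were 0.63 for NDRG1, a hypoxia-responsive gene, 0.66 for SRGN, the proteoglycan serglycin, and 0.63 for SYNGR3, a synaptic vesicle protein. They were 1.05 for KLRG2, 0.84 for GLB1L2, a galactosidase-like gene, and 0.59 for NR0B1, the nuclear receptor DAX1.

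Of the 12 lower genes, COL5A1 belongs to the collagen list and NID1 to the basement membrane list, and the rest are in none of the lists. DPYSL3, a cytoskeletal regulator of the collapsin response family, had the largest change, from 61.1, 102 and 48.8 CPM in Ctr to 15.4, 22.3 and 21.0 CPM in K3Q (log2 -1.86 ± 0.28, edgeR adjusted p = 0.0602). COL5A1, a chain of collagen V, was at 117, 215 and 125 CPM in Ctr and 49.7, 65.8 and 64.4 CPM in K3Q (log2 -1.34 ± 0.22, edgeR adjusted p = 0.0789). Ctr 1-2 was the highest Ctr library for both genes, and the K3Q libraries lay below all Ctr libraries without it as well. NID1, the basement membrane linker nidogen-1, was at 14.4, 20.0 and 17.3 CPM in Ctr and at 8.39, 7.97 and 8.02 CPM in K3Q (log2 -1.07 ± 0.16, edgeR adjusted p = 0.0602).

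HTRA1, a secreted serine protease, was at 58.4, 60.0 and 49.0 CPM in Ctr and 36.6, 29.1 and 28.8 CPM in K3Q (log2 -0.83 ± 0.12, edgeR adjusted p = 0.0602). ADAM19, a membrane metalloprotease, was at 19.4, 28.8 and 14.6 CPM in Ctr and 7.15, 7.97 and 9.84 CPM in K3Q (log2 -1.33 ± 0.22, edgeR adjusted p = 0.0875). The gap between the groups was narrowest at library 2-2 for ADAM19, where the difference of the libraries of the same number was -0.57 against -1.42 and -1.84. IGFBP7, which binds insulin-like growth factors, had a log2 change of -0.88 ± 0.15, and MFGE8, a bridging protein for uptake of dying cells, -0.58 ± 0.09. The remaining log2 changes were -1.07 for the sarcoglycan SGCD, -0.80 for the phosphodiesterase PDE7B, -0.85 for the hedgehog co-receptor BOC, -0.89 for the secreted protein METRNL and -0.93 for GLIPR2.

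**Figure D3:**
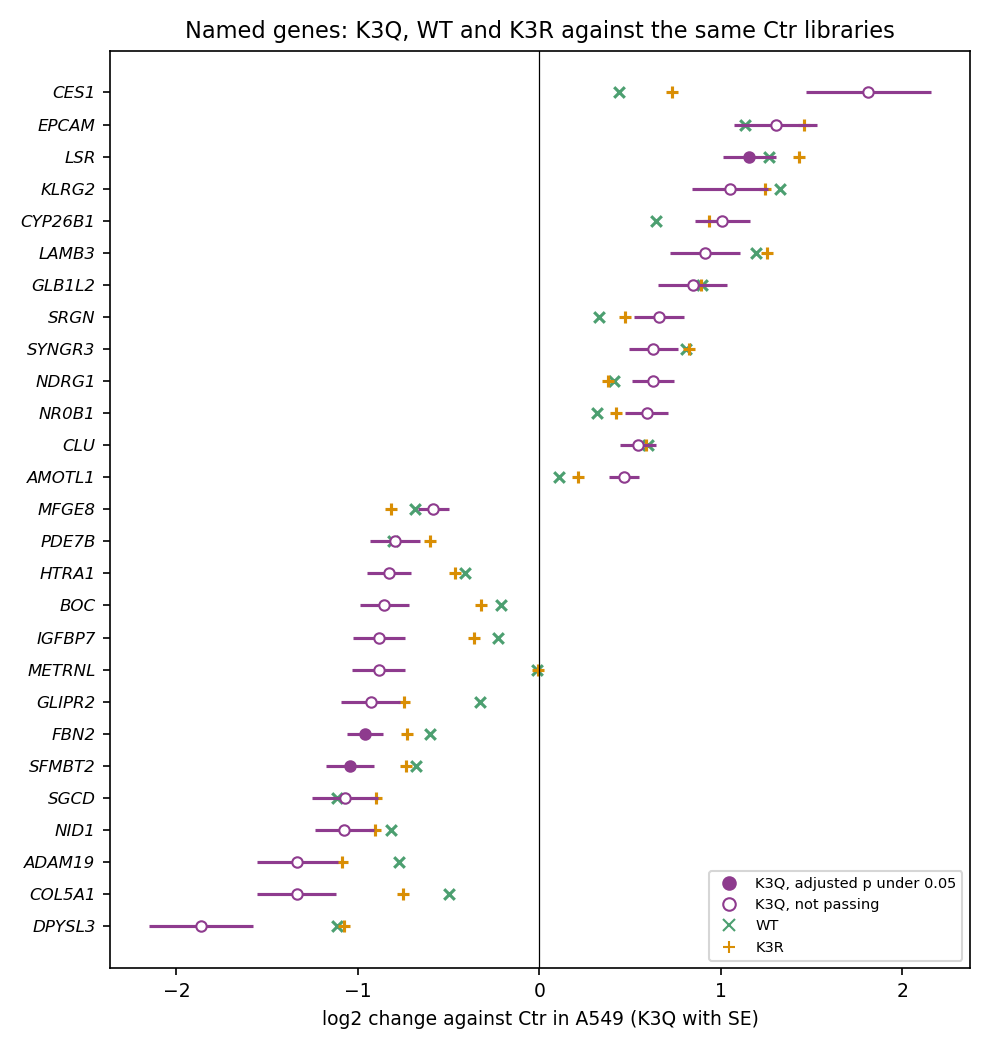
Log2 change against Ctr in A549 for LSR, FBN2, SFMBT2 and the 24 genes that rank next, with K3Q as circles with standard error (filled where the adjusted p passed), WT as crosses and K3R as plus signs. All 3 constructs are compared with the same Ctr libraries; METRNL lies at -0.89 in K3Q and at -0.01 in WT and K3R.

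The pathway lists put these genes in context, read against all tested genes. Over all 16120 genes, the 3 K3Q values lay above all 3 Ctr values for 745 (4.62%) and below for 907 (5.63%), and the median log2 change was 0.00. Of 44 epithelial junction and keratin genes 38 passed the filter on low counts, LSR alone passed the test, and 8 lay above and 0 below Ctr without overlap. The median log2 change was 0.24, and it was 0.23, 0.30 and 0.45 between K3Q and Ctr libraries numbered 1-1, 1-2 and 2-2. Here and below, the differences at 1-2 and 2-2 are not separate measurements on the K3Q side, because those K3Q libraries were nearly identical. K3Q 2-2 also did not resemble Ctr 2-2, so that pair is matched by number only. The 8 were LSR, EPCAM, the splicing regulator ESRP1, the tight junction genes CGN, CLDN7 and PARD6B, AP1M2, which sorts cargo to the basolateral membrane, and the protease inhibitor SPINT2. CGN (cingulin) was at 9.61, 10.3 and 6.72 CPM in Ctr and 15.0, 16.2 and 14.0 CPM in K3Q (log2 0.77 ± 0.28, edgeR adjusted p = 0.483). ESRP1 and CLDN7 were low, at no more than 2.42 and 2.32 CPM in any of the 6 libraries.

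CLDN2, the claudin of cation pores, went the other way, from 72.9, 25.8 and 18.6 CPM in Ctr to 26.1, 5.99 and 6.72 CPM in K3Q. The difference had one sign at each library number, but the K3Q 1-1 value of 26.1 CPM overlapped the Ctr range (log2 -1.65 ± 0.37, edgeR adjusted p = 0.183). F11R, the junctional adhesion molecule JAM-A, was at 28.9, 17.8 and 19.8 CPM in Ctr and 41.8, 27.5 and 31.8 CPM in K3Q, overlapping by the K3Q 1-2 library (log2 0.61 ± 0.14, edgeR adjusted p = 0.182). CDH1, E-cadherin, overlapped at 69.5, 38.3 and 33.7 CPM in Ctr and 100, 38.5 and 36.5 CPM in K3Q (log2 0.21 ± 0.22, edgeR adjusted p = 0.763). TJP1, OCLN, KRT19 and CLDN4 overlapped as well, with log2 changes of -0.13, -0.07, -0.02 and -0.14. Of the 38 tested genes of this list 30 had a positive and 8 a negative log2 change, against 7995 and 8125 of all tested genes. Such a split is not particular to this list. It was 40 and 0 for G2/M genes and 40 and 1 for G1/S genes, whose differences lay at library number 2-2 (below).

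Of 40 mesenchymal and epithelial-mesenchymal transition genes 35 were tested, 0 passed, 10 lay below Ctr without overlap and 2 above, and the median log2 change was -0.22. SPARC, a matrix glycoprotein, was at 10.5, 18.6 and 6.04 CPM in Ctr and 3.24, 1.92 and 2.48 CPM in K3Q (log2 -2.24 ± 0.40, edgeR adjusted p = 0.0996). CDH2, N-cadherin, was at 33.4, 67.5 and 58.4 CPM in Ctr and 17.3, 19.4 and 21.4 CPM in K3Q (log2 -1.39 ± 0.33, edgeR adjusted p = 0.222). Both were lower in every K3Q library than in every Ctr library. The others below were SNAI2, ZEB1, ZEB2, CD44, CALD1, ACTA2, TAGLN and NT5E, and TWIST2 and ITGAV lay above. Among the repressors of epithelial genes, SNAI2 was at 0.594, 1.84 and 7.01 CPM in Ctr and at most 0.177 CPM in K3Q, ZEB1 at 17.5 to 20.5 CPM in Ctr and 15.5 to 17.0 CPM in K3Q, and ZEB2 at 3.55 to 7.63 CPM in Ctr and 1.47 to 2.68 CPM in K3Q. None of the 3 passed, with edgeR adjusted p of 0.276, 0.542 and 0.426. S100A4, which this list also holds, lay at 462 to 471 CPM in K3Q and between 248 and 471 CPM in Ctr, with a log2 change of 0.49. VIM and FN1 overlapped between the groups, with log2 changes of -0.10 ± 0.11 and -0.14 ± 0.29 (edgeR adjusted p = 0.776 and 0.877). Of the 35 tested genes 9 had a positive and 26 a negative log2 change. ATF4 and amino acid response genes, described below, had a more one-sided split, with 3 and 30.

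ZEB and SNAI proteins are known to bind the E-box CACCTG. This hexamer was searched, with its reverse complement CAGGTG, in the 250 bases before the start site given by RefSeq for GRCh38.p14. It occurs in 17.5% of all 27305 promoters of the table, in 10 of the 23 promoters matched for the 38 tested epithelial genes (43.5%), in 3 of 26 for the mesenchymal genes (11.5%), in 3 of 18 for collagens (16.7%) and in 4 of 19 for basement membrane genes (21.1%). The promoters of the 2 genes that fell, and of AP1M2, one of the 8 epithelial genes above Ctr, as an example that holds the E-box, are shown 5′ to 3′ on the strand of the gene, with each hexamer in capitals. FBN2 and SFMBT2 hold none in these windows. The windows are chr5:128538246-128538495 for FBN2, chr10:7411491-7411740 for the first of 3 start sites of SFMBT2 and chr19:10587313-10587562 for AP1M2, all on the minus strand. The FBN2 window lies inside the GENCODE 29 span of the gene given above, which reaches 128659185. The first 19 bases after the start site were found near the start of 2 GENCODE transcripts of AP1M2, but of 0 for FBN2 and 0 for SFMBT2. Whether these start sites are in use in A549 was not tested.
FBN2: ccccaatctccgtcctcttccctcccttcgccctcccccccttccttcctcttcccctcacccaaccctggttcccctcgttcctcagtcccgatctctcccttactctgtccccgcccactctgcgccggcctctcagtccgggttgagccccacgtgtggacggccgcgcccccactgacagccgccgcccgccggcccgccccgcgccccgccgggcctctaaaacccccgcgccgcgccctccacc
SFMBT2: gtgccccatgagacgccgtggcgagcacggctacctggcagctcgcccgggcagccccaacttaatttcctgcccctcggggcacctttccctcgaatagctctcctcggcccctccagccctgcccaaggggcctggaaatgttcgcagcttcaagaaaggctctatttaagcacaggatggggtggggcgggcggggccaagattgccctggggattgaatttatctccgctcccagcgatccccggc
AP1M2: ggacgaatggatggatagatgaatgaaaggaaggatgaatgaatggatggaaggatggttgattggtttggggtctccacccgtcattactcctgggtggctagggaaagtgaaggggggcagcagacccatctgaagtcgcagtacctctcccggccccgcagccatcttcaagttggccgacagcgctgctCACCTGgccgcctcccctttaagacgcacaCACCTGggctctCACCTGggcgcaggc
AP1M2 holds 3 matches, all in the last part of the window. Its level was 32.8, 37.0 and 19.7 CPM in Ctr and 37.5, 50.5 and 43.1 CPM in K3Q, so that K3Q 1-1 was barely above Ctr 1-2 (log2 0.55 ± 0.24, edgeR adjusted p = 0.570). A match is a description of the sequence, and no binding was measured here.

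Of 32 collagen genes 23 were tested, 0 passed, 6 lay below Ctr without overlap and 1 above, and the median log2 change was -0.37. It had the same sign at each library number, with -0.18, -0.32 and -0.40. The 6 were COL5A1, COL6A2, COL13A1, COL4A2, COL4A5 and COL4A6, and the 1 was COL5A3, which was at most 1.30 CPM. COL6A2 was at 18.0, 42.5 and 39.5 CPM in Ctr and 13.1, 17.1 and 16.1 CPM in K3Q (log2 -1.03 ± 0.24, edgeR adjusted p = 0.212). COL4A4, a chain of the collagen IV network of specialised basement membranes, differed in the other direction, with 19.4, 4.90 and 5.07 CPM in Ctr and 39.3, 10.5 and 10.3 CPM in K3Q. Its K3Q values were about as far above the Ctr library of the same number each time, although they overlap as groups (log2 1.04 ± 0.18, edgeR adjusted p = 0.0875).

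Among basement membrane genes, 22 of 24 were tested, 0 passed, 5 lay below (NID1, PXDN, COL4A2, COL4A5 and COL4A6) and 2 above (LAMB3 and NID2), and the median log2 change was -0.08. Its sign was not the same at each library number, with 0.15, -0.16 and -0.13, and with replicate 1 alone 3 genes passed as higher and 5 as lower. The 3 collagen IV genes below count in the collagen list as well. The 2 nidogens parted: NID1 was lower, as given above, and NID2 was at 6.32, 4.41 and 8.54 CPM in Ctr and 16.9, 10.1 and 9.61 CPM in K3Q (log2 0.89 ± 0.26, edgeR adjusted p = 0.335). PXDN, peroxidasin, which cross-links collagen IV, was at 17.9, 32.9 and 33.5 CPM in Ctr and 7.56, 8.03 and 9.43 CPM in K3Q (log2 -1.68 ± 0.37, edgeR adjusted p = 0.176). Of 27 genes for fibrillins, elastic fibres and latent TGF-beta binding proteins 21 were tested, FBN2 passed, and 4 lay below and 0 above. The median log2 change of that list was -0.08, and by library number it changed sign, with -0.07, 0.02 and -0.11. The other 3 below were LTBP2, LTBP3 and ELN. LTBP2 was at 38.4, 36.3 and 53.7 CPM in Ctr and 25.7, 24.5 and 25.0 CPM in K3Q (log2 -0.77 ± 0.19, edgeR adjusted p = 0.252). FBN1, the closest relative of FBN2, overlapped between groups at 24.2, 37.9 and 32 CPM in Ctr and 19.9, 28.3 and 27.4 CPM in K3Q (log2 -0.31 ± 0.13, edgeR adjusted p = 0.527).

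TGF-beta ligands, receptors and targets had 24 of 25 members tested, 0 that passed, 3 below (LTBP2, PMEPA1 and the receptor gene TGFBR1) and 1 above (TGFBR3), and a median log2 change of -0.19. PMEPA1, a target and feedback inhibitor of the pathway, was at 200, 308 and 224 CPM in Ctr and 123, 172 and 184 CPM in K3Q (log2 -0.62 ± 0.16, edgeR adjusted p = 0.289). TGFB1 overlapped between the groups (log2 -0.22 ± 0.11), and so did CCN2, at 51.4 CPM in Ctr 2-2 against 15.3 to 24.9 CPM in the other 5 libraries. Of 38 Polycomb and MBT genes 36 were tested. SFMBT2 passed, 3 lay below and 2 above (L3MBTL1 and ASXL2), and the median log2 change was -0.04. The other 2 below were RNF2, the ubiquitin ligase of Polycomb complex 1, at 20.4 to 20.6 CPM in Ctr and 16.2 to 17.3 CPM in K3Q, and PHC2 (RNF2 log2 -0.30 ± 0.11, edgeR adjusted p = 0.486).

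NRF2 targets, the antioxidant and NADPH-producing genes which A549, a line known for a mutated KEAP1, expresses highly, had all 39 members tested. None passed, 8 lay above and 0 below, and the median log2 change was 0.29. By library number the medians were 0.09, 0.23 and 0.42, so library 2-2 gave the largest difference. SRXN1, sulfiredoxin, was at 54.4, 45.4 and 40.2 CPM in Ctr and 71.4, 81.5 and 76.3 CPM in K3Q (log2 0.71 ± 0.20, edgeR adjusted p = 0.318). GCLC, the catalytic subunit of glutathione synthesis, was at 215, 223 and 198 CPM in Ctr and 247, 290 and 302 CPM in K3Q (log2 0.40 ± 0.13, edgeR adjusted p = 0.399). NR0B1, also one of the 12 higher genes, belongs to this list, and the others above without overlap were CYP4F11, GCLM, CBR1, GSR and CBR3.

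In other lists the difference between K3Q and Ctr was largest at library number 2-2. The median of 40 tested G2/M genes was 0.31 in the fit, but between libraries of the same number it was 0.01 at 1-1, 0.00 at 1-2 and 1.15 at 2-2. For 41 G1/S genes the medians were -0.01, 0.02 and 0.97. BUB1, a spindle checkpoint kinase, shows it: 92.6, 84.2 and 31.3 CPM in Ctr against 96.5, 103 and 109 CPM in K3Q. Ctr 2-2 stands apart among the 6 libraries compared. On component 1, though, Ctr 2-2 (53.7) lay with WT 2-2 (50.9) and K3R 2-2 (51.1), and K3Q 2-2 (-13.0) did not. ATF4 and amino acid response genes (33 of 34 tested) had medians of 0.29, 0.10 and -1.08, p53 targets (30 tested) -0.19, 0.13 and -0.44, and NF-kB targets (29 of 35 tested) -0.06, 0.16 and -0.54. DDIT3, the stress factor CHOP, was at 5.67, 5.82 and 39.8 CPM in Ctr and 8.03, 4.42 and 4.89 CPM in K3Q. ATF3 had the same shape, with 51.5 CPM in Ctr 2-2 and 6.25 to 9.31 CPM in the other 5 libraries.

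Within Ctr, library 2-2 minus 1-2 gave medians of -1.07 for G2/M genes, -0.90 for G1/S genes, 1.15 for ATF4 genes, 0.66 for p53 targets and 0.68 for NF-kB targets. Within K3Q the same subtraction gave 0.03, 0.00, 0.01, 0.03 and 0.05. No gene of these 5 lists passed in the fit of all libraries. With replicate 1 alone the median log2 changes were 0.00 for G2/M, 0.01 for G1/S, 0.17 for ATF4, -0.02 for p53 and -0.03 for NF-kB, against 0.24 for epithelial genes, -0.18 for mesenchymal genes, -0.19 for collagens and 0.19 for NRF2 targets. The last 4 thus kept their sign without the 2-2 libraries. Other lists did so too, among them Wnt feedback targets (-0.20), TGF-beta genes (-0.09) and lung lineage genes (-0.13). For lung lineage genes the medians by library number had opposite signs, with 0.14 at 1-1 and -0.24 at 1-2. Replicate 1 is part of the libraries that gave the signs, so neither the kept signs nor the counts below are independent support. In that fit, where 0.720% of all genes passed as higher and 1.09% as lower, 4 of 39 epithelial genes passed as higher and 1 as lower. Of 35 mesenchymal genes 0 and 6 passed, of 23 collagens 1 and 5, and of 39 NRF2 targets 4 and 0. Of 33 ATF4 genes 2 passed as higher and 0 as lower, with a median close to that of the NRF2 targets, and of the G2/M, G1/S, p53 and NF-kB genes 0 passed.

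**Figure D4:**
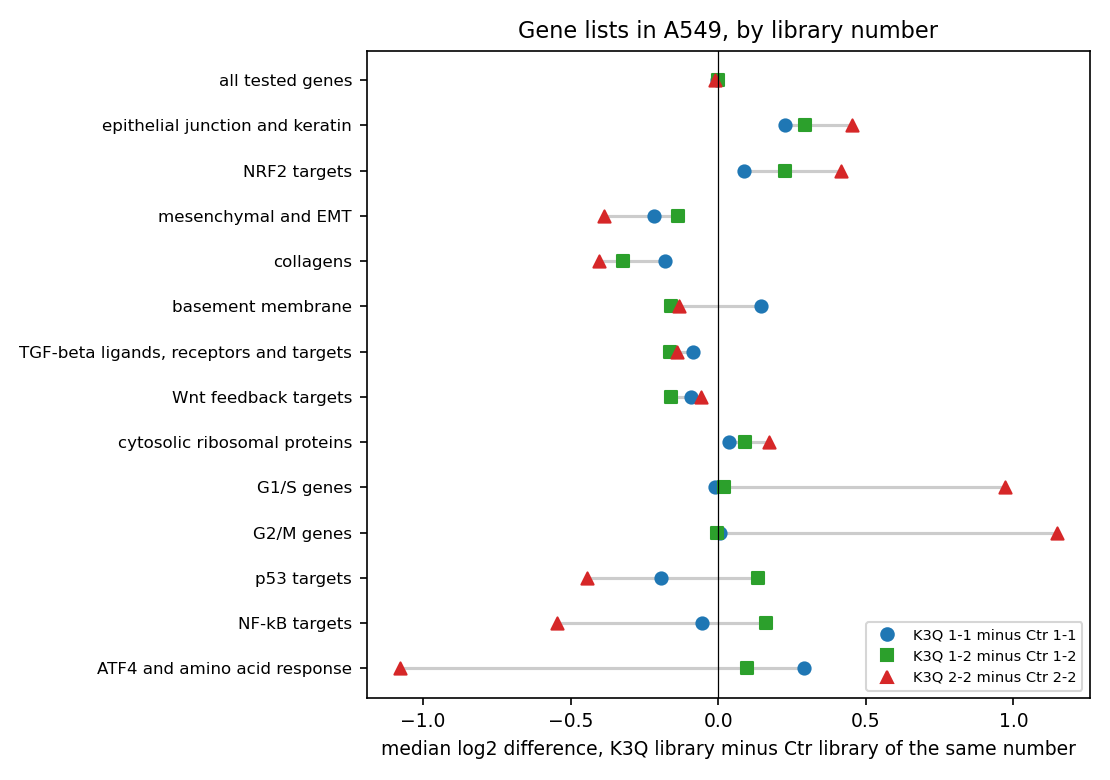
Median log2 difference of gene lists and of all tested genes between the K3Q and the Ctr library of the same number in A549, for libraries 1-1 (circles), 1-2 (squares) and 2-2 (triangles). Epithelial, NRF2, mesenchymal and collagen lists have one sign at all 3 numbers, while G1/S, G2/M and ATF4 lists lie at 0.97, 1.15 and -1.08 at 2-2 and between -0.01 and 0.29 at the others. K3Q 1-2 and K3Q 2-2 were nearly identical, so squares and triangles are not separate measurements on the K3Q side.

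Genes tied to known functions of SIRT6 gave small differences. The glycolysis list, which SIRT6 is known to repress through histone deacetylation, had all 23 members tested, 0 that passed and 3 above without overlap, HK1, PFKM and PDK1. Its median log2 change was 0.17, and between libraries of the same number it was -0.02, 0.15 and 0.45. HK1, hexokinase 1, was at 106, 82.9 and 86.6 CPM in Ctr and 125, 125 and 113 CPM in K3Q (log2 0.40 ± 0.14, edgeR adjusted p = 0.436). Of 45 DNA repair genes 0 passed, 3 lay above (EXO1, XRCC5 and RAD54L) and the median was 0.09. Subunits of the KAT8 acetyltransferase complexes (12 tested) had 0 outside the Ctr range and a median of 0.03.

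Of 79 cytosolic ribosomal protein genes 14 lay above Ctr without overlap, 0 lay below and 0 passed. Their median log2 change was 0.09, and RPL31 had the lowest p, at 487, 440 and 377 CPM in Ctr and 553, 592 and 575 CPM in K3Q (log2 0.41 ± 0.13, edgeR adjusted p = 0.402). The other 6 sirtuins did not pass. SIRT2 lay below without overlap, at 37.1, 40.4 and 44.0 CPM in Ctr and 35.9, 30.3 and 27.1 CPM in K3Q (log2 -0.37 ± 0.24, edgeR adjusted p = 0.688). The log2 changes of SIRT1, SIRT3, SIRT5 and SIRT7 were -0.07, -0.02, -0.28 and 0.10, and SIRT4, at most 1.10 CPM, gave -0.93 ± 0.54. Of 15 tested Wnt feedback targets 5 lay below (SOX4, CD44, NKD2, TCF7 and NOTUM) and 0 above. Of 32 interferon-stimulated genes 1 lay below (IFIT2) and 3 above (HERC6, IFIH1 and UBE2L6). Neuronal genes (17 of 32 tested) had 3 above, L1CAM, KIF1A and SYP, and 1 below, CPE, with a median of 0.02, and alveolar and lung lineage genes (13 of 22 tested) had 2 below, HNF4G and ABCA3, with a median of -0.30. None of the genes of these 4 lists passed.

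The changes in WT and K3R are given beside those in K3Q as values. All 3 use the same Ctr libraries, and the genes were chosen by K3Q against Ctr, so likeness between the 3 changes is no independent result. LSR had log2 changes of 1.26 ± 0.15 in WT, 1.43 ± 0.15 in K3R and 1.16 ± 0.15 in K3Q. It passed in WT and K3R as well (edgeR adjusted p = 0.00979 and 0.00370). FBN2 had -0.60, -0.73 and -0.96, each with an SE of 0.10, and SFMBT2 -0.68, -0.74 and -1.04, each with an SE of 0.13. FBN2 passed in K3R (edgeR adjusted p = 0.0216) but not in WT (0.0539), and SFMBT2 in neither (0.0943 in WT, 0.0687 in K3R). The direct difference K3Q minus WT was -0.11 ± 0.14 for LSR, -0.36 ± 0.10 for FBN2 and -0.36 ± 0.13 for SFMBT2, and none passed (edgeR adjusted p = 0.938, 0.531 and 0.678). K3Q minus K3R gave -0.27 ± 0.14, -0.23 ± 0.10 and -0.31 ± 0.13 (edgeR adjusted p = 0.971 for each). SIRT6 itself ran from 1367 to 2847 CPM in WT and from 1369 to 3239 CPM in K3R, and K3Q minus WT was -0.44 ± 0.22 (edgeR adjusted p = 0.820).

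K3Q and WT differed in 1 of 16120 genes (0.00620%), and K3Q and K3R in 1 (0.00620%). Both times it was SPANXB1, a cancer-testis antigen on the X chromosome with near-identical neighbouring copies, so that its reads are uncertain. SPANXB1 was at 0.594, 1.59 and 2.96 CPM in Ctr and 0.875, 2.68 and 2.83 CPM in K3Q, which overlap. In WT it was at 4.39, 12.4 and 13.1 CPM and in K3R at 3.75, 11.6 and 16.9 CPM. K3Q minus WT was -2.25 ± 0.24 (edgeR adjusted p = 0.0248) and K3Q minus K3R -2.29 ± 0.24 (edgeR adjusted p = 0.0204). With the K3Q pair summed 0 genes passed in either comparison. The same was true when any 1 library of the constructs compared was left out, except that 1 gene passed against K3R without K3R 1-2.

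A few other genes stood apart between the constructs without passing the test of the difference. KIF1A, a neuronal kinesin, was at 5.02, 6.25 and 10.5 CPM in Ctr, 11.2, 14.4 and 12.2 CPM in K3Q, and 24 to 66.9 CPM in WT and K3R (K3Q minus WT -1.68 ± 0.31, edgeR adjusted p = 0.185). METRNL had another pattern, lower in K3Q and near Ctr in WT and K3R (log2 -0.01 in each). It was at 7.56, 11 and 11.3 CPM in Ctr and 3.40, 6.69 and 6.54 CPM in K3Q, with 5.93, 11.8 and 13.0 CPM in WT (K3Q minus WT -0.87 ± 0.14, edgeR adjusted p = 0.115). Among the 12 higher genes, CES1 had a log2 change of 1.81 in K3Q against 0.44 in WT and 0.73 in K3R. Its difference K3Q minus WT was 1.38 ± 0.33 (edgeR adjusted p = 0.411). PDE7B, SGCD, CLU and GLB1L2 lay closest to WT, with differences of 0.01, 0.04, -0.05 and -0.05. MFGE8, EPCAM, LAMB3 and KLRG2 did not pass in K3Q but passed against Ctr in another construct. MFGE8 fell by 0.68 in WT and 0.82 in K3R on the log2 scale (edgeR adjusted p = 0.0158 and 0.00407). EPCAM (log2 1.46, edgeR adjusted p = 0.0485) and LAMB3 (1.25, 0.0435) passed in K3R, and KLRG2 (1.32, 0.0487) in WT.

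The same construct in H1299 gave another test of difference. In all 24 libraries, 3 of 18102 genes (0.0166%) had an effect of K3Q against Ctr in A549 that differed from that in H1299. SIRPA, the macrophage checkpoint receptor for CD47, was at 80.4, 98.7 and 61.6 CPM in A549 Ctr and 62.2, 57.9 and 57.0 CPM in A549 K3Q, which overlap. In H1299 it was at 4.46, 4.34 and 4.82 CPM in Ctr and 0.731, 0.716 and 0.652 CPM in K3Q. The log2 changes were -0.44 ± 0.15 in A549 and -2.69 ± 0.28 in H1299, a difference of 2.24 ± 0.26 (edgeR adjusted p = 0.000694).

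AMOTL1 was higher with K3Q in A549, as given above, and in H1299 it stood at 44.8, 46.5 and 44.3 CPM in Ctr and 32.4, 32.8 and 38.1 CPM in K3Q (difference of the effects 0.86 ± 0.13, edgeR adjusted p = 0.0133). NID2 was at 2.52, 1.66 and 1.59 CPM in H1299 Ctr and 0.634, 0.644 and 0.652 CPM in H1299 K3Q, against the higher K3Q values in A549 given above (difference 2.46 ± 0.41, edgeR adjusted p = 0.0450). For both genes the 3 K3Q values lay above the 3 Ctr values in A549 and below them in H1299. Neither gene passed within A549, as given above, or within H1299. The log2 change in H1299 was -0.40 ± 0.10 for AMOTL1 and -1.57 ± 0.35 for NID2 (edgeR adjusted p = 0.236 and 0.154). With the K3Q pair of A549 summed, SIRPA passed (2.24, adjusted p = 0.00263), and AMOTL1 (0.86, adjusted p = 0.0593) and NID2 (2.55, adjusted p = 0.0642) did not. In batch 2 alone none of the 3 passed. SIRT6 reached 1472 to 1696 CPM with K3Q in A549 and a mean of 13623 CPM in H1299, so the construct level and the line cannot be told apart in this contrast.

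**Figure D5:**
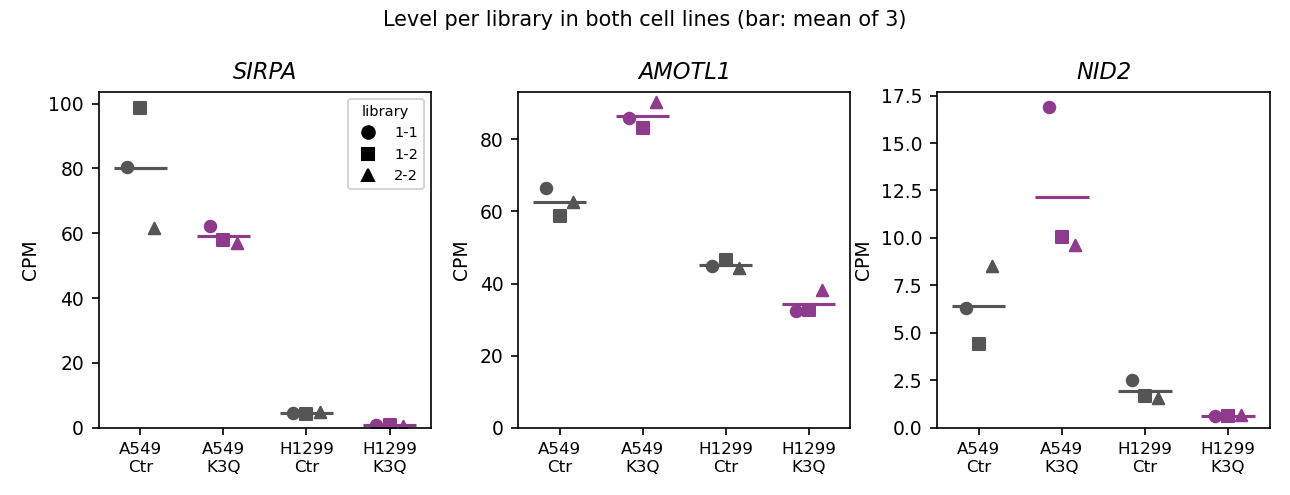
Level in CPM of SIRPA, AMOTL1 and NID2 in each Ctr and K3Q library of A549 and H1299, with shapes for library numbers and a bar for the mean of 3. AMOTL1 and NID2 lie higher with K3Q in A549 and lower with K3Q in H1299.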

How the data were processed

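RNA-seq libraries of A549 (12) and H1299 (12) were analysed, with 3 per construct. The deposited table holds counts of reads per gene, not normalised, for 59385 symbols. Per the submitters' processing notes, reads went through FastQC, cutadapt, STAR and featureCounts on GRCh38. The versions, the annotation release and the strand setting are not given in the sources used. Without a known strand setting, overlapping and antisense genes cannot be told apart.

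The 12 A549 libraries entered one fit with construct and batch as terms (edgeR 4.0.16 in R 4.3.3, filterByExpr, TMM, quasi-likelihood test, Benjamini-Hochberg over all genes tested, threshold 0.05). Effects in A549 and H1299 were compared over all 24 libraries, with batch within each line. Levels are TMM-scaled CPM, and log2 CPM used a prior count of 2. Standard errors are the absolute log2 change over the square root of F. The K3Q pair was treated as stated in the report. The procedure was tested on simulated data, but no outcome of that is given here and no error rate is claimed from it. Coordinates come from GENCODE 29 by symbol and promoters from RefSeq.

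Named are SIRT6, genes that passed, the 12 higher and 12 lower that rank next (mean log2 CPM of at least 1, groups that do not overlap, no clone-style names), and up to 4 members of a list by p. Other list members without overlap, and CDH1, TJP1, OCLN, KRT19, CLDN4, VIM and FN1, were named after their values were seen. Members and lists were chosen with earlier results of these data known. Alternatives were DESeq2 1.42.0, a model that omits batch, RLE size factors, keeping genes of low count and a block on the replicate number. Others were a joint fit of 24 libraries, the K3Q pair summed, replicate 1 alone, batch 2 alone and the 6 libraries on their own. Each library of the groups compared was also left out in turn.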

Additional observations from a re-analysis of the deposited data

Results flagged for a closer look

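For 3 genes, the effect of K3Q against Ctr differed between A549 and H1299 by the test of the difference itself. SIRPA had a log2 effect 2.24 higher in A549 (SE 0.26, edgeR adjusted p = 0.000694): the level was lower with K3Q in H1299 in 3 of 3 libraries by number, and in A549 also in 3 of 3 but less far. AMOTL1 had a difference of 0.86 (SE 0.13, edgeR adjusted p = 0.0133), with opposite signs in the 2 lines at all 3 library numbers. NID2 had a difference of 2.46 (SE 0.41, edgeR adjusted p = 0.0450), also with opposite signs, and its H1299 K3Q level of 0.634 to 0.652 CPM rests on few reads. For AMOTL1 and NID2 the effect of K3Q passed in neither line taken by itself. The H1299 K3Q level of SIRPA, 0.652 to 0.731 CPM, rests on few reads as well. Over the alternatives the adjusted p ran from 1.49e-10 to 0.776 for SIRPA, from 1.42e-07 to 0.831 for AMOTL1 and from 1.38e-06 to 1.00 for NID2, each highest in batch 2 alone. SIRPA passed without each library in turn. AMOTL1 did not pass without A549 Ctr 1-1, A549 K3Q 1-2 or 2-2, H1299 Ctr 1-1 or 1-2, or H1299 K3Q 1-1 or 1-2 (adjusted p 0.0510 to 0.0907). NID2 passed without A549 Ctr 2-2 (0.00265) or H1299 Ctr 2-2 (0.0414) but not without any other. The level of SIRT6 with K3Q differed between the lines at the same time, and its part in these differences was not tested.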

How the results depend on the processing

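SIRT6 passed under every alternative for K3Q against Ctr, with log2 changes of 5.72 to 6.13. The count of genes that passed, 4 in the fit reported, was 2 with no batch term, 641 with no low-count filter, 154 by DESeq2, 25 with all 24 libraries in one fit, 1 with the K3Q pair summed, 292 with biological replicate 1 alone, 1 in batch 2 alone, 2 with only the 6 libraries, and 1 to 14 when each library was left out. At an unadjusted p under 0.05 it was 1390. K3Q against WT, 1 in the report, gave 0, 332, 56, 3, 0, 79 and 0 in the same order up to batch 2 alone, and 0 without each library. K3Q against K3R, also 1, gave 0, 228, 23, 1, 0, 4 and 0, and 0 to 1. The difference between lines, 3 in the report, gave 1 with no batch term, 203 with no filter, 50 by DESeq2, 1 with the pair summed, 444 with replicate 1 alone and 0 in batch 2 alone, and 1 to 6 when each library was left out. RLE scaling left all 4 counts as they were.

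The replicate number as a block gave 144 genes for K3Q against Ctr, 20 against WT, 7 against K3R and 37 between lines. With the pair summed and the block it gave 221, 90, 17 and 39. The numbers do not pair K3Q 2-2: its deviation from the group mean correlated at 0.0569 with Ctr 2-2, against 0.453 at 1-1 and 0.285 at 1-2, so these counts carry that doubt.

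All 28 genes named by rank or by passing kept their direction throughout. Their K3Q and Ctr values do not overlap in these same libraries, so a reversal was hardly possible. Of the list members named by p, ATF3 turned from a log2 change of -0.96 to 0.19 with the pair summed and the block and 0.37 with replicate 1 alone. It ran from -1.71 to 0.19 when each library was left out, positive without Ctr 2-2. Under the first 2 of these, DDIT3 turned to 0.091 and 0.14, and OGT to 0.046 and 0.044. ATF3 and DDIT3 passed only with no low-count filter, as lower. The causes were not tested. With 3 libraries per group and a nearly identical K3Q pair, most differences did not pass, and genes that did not pass are not shown to be without change.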
